A study of Mus musculus with 2 samples.

Results

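Mitotic macrophages are tumor macrophages that carried the transcripts of dividing cells, and they were chosen by measured values. A cell was counted as a macrophage when it held at least 5 UMIs (unique molecular identifiers, each marking 1 captured RNA molecule) of *Lyz2*, the lysozyme gene of myeloid cells, and no UMI of the T cell receptor genes *Cd3d*, *Cd3e* and *Cd3g*. It was counted as mitotic when at least 4 of the 6 genes *Top2a*, *Mki67*, *Birc5*, *Ccna2*, *Ube2c* and *Prc1* had a UMI. The rule found 853 cells, 451 of the control and 402 of the telmisartan pool, among 8175 macrophages (4321 and 3854) and 20726 cell barcodes in all. The data come from 1 single-cell capture of live CD45+ cells sorted from subcutaneous MC38 tumors, a mouse colon carcinoma line, grown in female C57BL/6 mice aged 6 to 8 weeks. Control mice received the vehicle, and treated mice received telmisartan, a blocker of the angiotensin II type 1 receptor, at 5 mg/kg daily by intragastric gavage from implantation. Tumors were taken on day 13, and cells of 5 mice were pooled per group and marked with 1 Sample Tag, an antibody-bound oligonucleotide, per pool. The RNA library and the tag library of the capture share every barcode, all 20726, since they read the same cells.

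Macrophages divide inside tissues as well as being replenished from blood monocytes, and a dividing cell first copies its DNA in S phase and then separates the copies in mitosis. Genes of DNA replication are switched on by E2F transcription factors, and genes of mitosis later by the MYBL2 and FOXM1 factors, so that the transcripts in a cell show roughly where it stands in the cycle. In tumors, locally dividing macrophages are known as one source of the macrophages that accumulate there.

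Levels are given as CPM, the UMIs of a gene per 1e6 UMIs of the cells summed. Where 2 values are joined by "and" without further words, the first is of the control and the second of the telmisartan pool. Mitotic macrophages are set beside macrophages of the same gate with none of the 6 rule genes (non-mitotic, 2677 and 2447 cells) and beside 108 and 52 S-phase macrophages, which had at most 1 rule gene and at least 4 of *Mcm3*, *Mcm5*, *Mcm6*, *Cdc6*, *Gins2* and *Uhrf1*. The last 2 sets overlap, since 36 and 19 S-phase macrophages had no rule gene and are also counted as non-mitotic. The name S-phase stands for this gate, and the point of these cells in the cycle was not measured. Each group is 1 pool without replicates, so no difference between the pools was tested, and the 95% intervals in brackets cover counting error only. Mitotic macrophages held 6719458 and 5192083 UMIs in sum. They were deeper cells, with a median of 14893 and 12839.5 UMIs against 8288 and 6459 in non-mitotic macrophages, ratios of 1.80 and 1.99. The median share of mitochondrial UMIs was 7.65 and 8.27% in mitotic and 6.85 and 7.75% in non-mitotic macrophages.

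Most macrophages had none of the rule genes, and a second, smaller peak of the count lay at all 6. Cells with all 6 had a median of 15474 UMIs against 7268.5 with none, and 6 is the most the count can reach. No rule gene was found in 5124 macrophages (62.7%), 1 gene in 1561 (19.1%), 2 genes in 452 (5.53%) and 3 genes in 185 (2.26%). The counts then went up again, with 4 genes in 147 macrophages (1.80%), 5 genes in 185 (2.26%) and all 6 in 521 (6.37%). Just outside the rule, cells with 3 of the genes had a median of 507 CPM over the 6 genes, from 5 UMIs. Just inside it, cells with 4 had 1190.4 CPM, from 12 UMIs. The 6 genes summed to 2889.8 and 2909 CPM in mitotic macrophages, to 0 in non-mitotic macrophages by construction, and to 80.4 and 91.9 CPM in S-phase macrophages. Among them, *Top2a*, the topoisomerase that untangles sister chromosomes, had 862 and 792 CPM, and *Mki67*, which coats mitotic chromosomes, had 774 and 816 CPM. *Ube2c*, the ubiquitin-conjugating enzyme that helps destroy cyclin B, had 411 and 431 CPM, and *Birc5*, the survivin subunit of the chromosomal passenger complex, had 337 and 371 CPM. *Ccna2*, the cyclin of S phase and mitotic entry, had 297 and 292 CPM, and *Prc1*, which bundles the microtubules of the central spindle, had 209 and 208 CPM. These values chose the cells and carry no test.

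**Figure D1:**
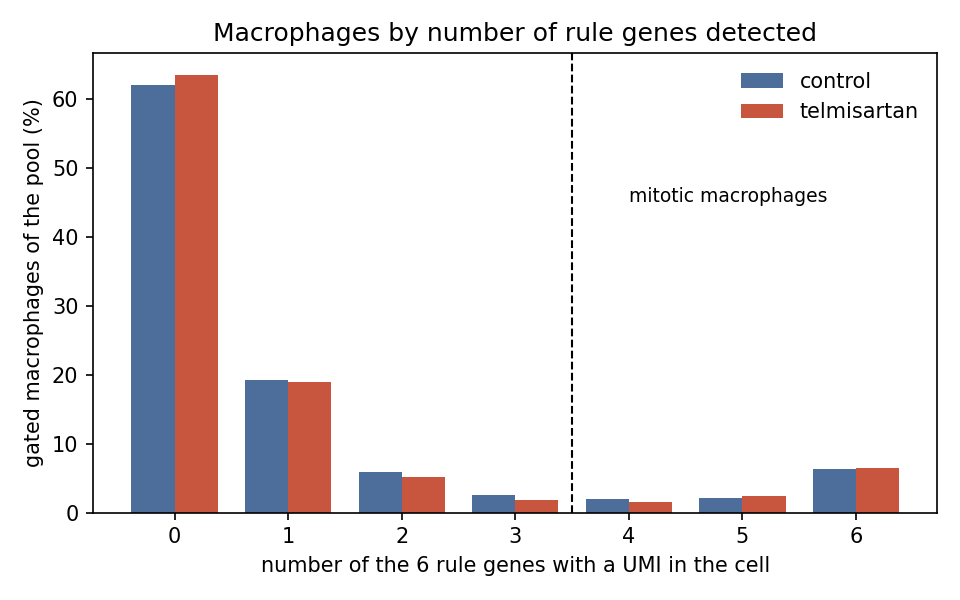
Share of the macrophages of each pool (vertical axis, %) by how many of the 6 rule genes had a UMI (horizontal axis), with 1 bar per pool. Over both pools 62.7% had none and 6.37% had all 6, and the dashed line marks the rule of at least 4.

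The label can be checked against macrophage genes, none of which the rule used except *Lyz2*. None of 15 macrophage identity genes was 2-fold higher or lower than in non-mitotic macrophages in both pools, with list medians of -0.11 and -0.29 on the log2 scale. Of all genes tested 6.14% were higher and 1.36% lower, so nothing is read from this count. *Csf1r*, the receptor for the growth factor that keeps macrophages alive, had 702 and 636 CPM against 678 and 637 CPM. *Adgre1*, which encodes F4/80, had 144 and 146 CPM against 129.8 and 149 CPM, and *Cd68*, a lysosomal membrane glycoprotein, had 811 and 842 CPM against 877 and 1031 CPM. Both were thus about as high in dividing as in other macrophages. For thinned shares of cells with a gene, here and below, cells were thinned to 5000 UMIs. Shallower cells were left out, 8 and 14 mitotic and 621 and 862 non-mitotic macrophages. *Csf1r* then had a UMI in 92.8% (89.96 to 95.01%) and 92.3% (89.1 to 94.7%) of mitotic and 92.8% (91.5 to 93.8%) and 91.04% (89.5 to 92.4%) of non-mitotic macrophages (98.7 and 98.8% and 92.2 and 87.9% unthinned). The subunits of complement C1q, which coats dying cells for uptake, were the higher end of the list. *C1qb* had 2116 and 2155 CPM against 1513 and 1540.2 CPM, log2 ratios of 0.48 (0.46 to 0.51) and 0.48 (0.45 to 0.52), and *C1qc* had log2 ratios of 0.57 (0.54 to 0.60) and 0.56 (0.52 to 0.60). *Lyz2* itself, not one of the 15, had 8742 and 7997 CPM against 11208 and 10329 CPM, log2 ratios of -0.36 (-0.37 to -0.35) and -0.37 (-0.38 to -0.35). *Fcer1g*, an adaptor of Fc receptors, had the most UMIs of the 15 at 2379 and 2265 CPM against 2703 and 2679 CPM. The lowest ratio in control was that of *Cd14*, the receptor for bacterial endotoxin, at -0.66 (-0.69 to -0.63) and -0.45 (-0.48 to -0.42), and in telmisartan that of *Cd86*, a costimulator of T cells, at -0.49 (-0.57 to -0.41) and -0.67 (-0.76 to -0.59). *Mertk*, a receptor for the uptake of dying cells, had 66.5 and 50.1 CPM against 85.4 and 76.5 CPM. *Apoe*, a lipid carrier, had 961 and 1702 CPM against 1092 and 2404 CPM.

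Transcripts of other cell types were few in mitotic macrophages, but some types were found more often than in non-mitotic ones. At least 3 NK cell UMIs were held by 2.88 and 1.49% of mitotic against 0.374 and 0.490% of non-mitotic macrophages. T cell genes had 0.887 and 1.99% against 0.149 and 0.286%, and dendritic cell genes 5.76 and 1.99% against 1.94 and 1.31%. Endothelial genes went the other way, with 1.77 and 0.746% against 1.98 and 1.02%. Mitotic macrophages are the deeper cells, and these shares were not thinned. Among T cell genes, 10 and 9 of 10 had a UMI and summed to 11.6 and 17.3 CPM, against 12.04 and 14.6 CPM in non-mitotic macrophages. The most abundant were *Skap1* with 19 UMIs and *Cd2* with 34, and *Cd8a* was at 0 in the telmisartan pool. Of 5 NK cell genes 4 were found in each pool, at 14.1 and 12.1 CPM against 7.13 and 7.42, led by *Klrd1*, with *Gzma* at 0 in control and *Ncr1* at 0 in telmisartan. Of 4 B cell genes 2 and 1 were found, at 1.79 and 1.54 CPM, nearly all *Cd79b*, and the defining *Cd79a* was at 0. All 7 dendritic cell genes were found, at 55.5 and 36.6 CPM against 27.7 and 29.2, led by *Kit* and *Clec9a*. At least 3 dendritic UMIs were held by 26 and 8 mitotic macrophages, and without cells holding 3 UMIs of another cell type, a setting chosen after seeing the data, the median ratios of this list were -0.13 and -0.35 rather than 1.25 and 0.24. At a tag share of 90% they were 0.18 and -0.82, and the second is also below 0 with a *Lyz2* minimum of 10 UMIs. *Xcr1*, the chemokine receptor of cross-presenting dendritic cells, had 43 and 16 UMIs, and *Cd209a* had 65 and 12. Neutrophil genes were lower than in other macrophages, 4 of 5 found at 11.2 and 16.2 CPM against 41.4 and 33.7, led by *Csf3r*, with *Retnlg* at 0.

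Tumor cells, fibroblasts and endothelial cells lack CD45, and the sort for CD45+ cells would leave them out, but tumor cells divide too, and their keratin and junction genes were looked at. Of 7 such genes 3 and 2 had a UMI in mitotic macrophages, at 2.83 and 1.73 CPM against 3.16 and 0.884. *Epcam* was the most abundant with 17 and 8 UMIs, and *Krt8*, *Krt20* and *Cldn7* were at 0 in both pools. Fibroblast genes, 6 and 5 of 6, led by the collagens *Col1a1* and *Col3a1*, summed to 8.93 and 15.8 CPM against 7.34 and 12.5. The 4 endothelial genes, led by *Pecam1*, summed to 18.2 and 16.9 CPM against 28.5 and 24.1. Mast cell and basophil genes were at 0.298 and 0.193 CPM from 2 and 1 UMIs, with *Cpa3* and *Ms4a2* at 0, and erythroid genes, 4 and 3 of 5, at 1.79 and 0.578 CPM, with *Hbb-bs* at 0 in control and *Hba-a1* at 0 in telmisartan. Whether RNA of these cell types has a part in the differences below was not tested. Doublets were kept, since the automatic threshold of Scrublet marked 0 of 9911 cells, although 9.51% same-tag doublets were predicted from the cells split between tags. The 942 cells with the highest scores hold 127 mitotic macrophages (14.9%) and 431 non-mitotic ones (8.41%), and mitotic macrophages are also the deeper cells.

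Mitotic cells made up the same share of the macrophages in both pools, 10.4% in control (exact Clopper-Pearson 95% interval 9.54 to 11.4%) and 10.4% in telmisartan (9.48 to 11.4%). Among macrophages of similar depth, the telmisartan pool had the higher share in every range from 2500 UMIs up. Below 2500 UMIs, 0 of 205 and 0 of 270 macrophages were mitotic, and such shallow cells may fail to show 4 of the genes even where they divide. From 5000 to 7500 UMIs the share was 3.76% (2.51 to 5.39%) in control and 6.26% (4.77 to 8.06%) in telmisartan. From 10000 to 15000 it was 11.2% (9.57 to 13.01%) and 15.8% (13.3 to 18.4%). From 15000 to 20000 it was 23.7% of 596 control macrophages (20.3 to 27.3%) and 45.2% of 239 telmisartan macrophages (38.8 to 51.7%). At 20000 and over it was 50.9% of 161 (42.9 to 58.9%) and 68.0% of 50 (53.3 to 80.5%). The pools differ in depth, with a median of 9784 UMIs per macrophage in control and 7387.5 in telmisartan. Thinned to 5000 UMIs, with 720 and 1061 shallower macrophages left out, the share was 8.97% (8.06 to 9.95%) in control and 11.4% (10.3 to 12.7%) in telmisartan, a log2 ratio of 0.35 (0.12 to 0.58). Thinned to 2000 UMIs it was 3.88% (3.31 to 4.51%) and 4.71% (4.05 to 5.44%), a log2 ratio of 0.28 (-0.04 to 0.60). Without the upper limit of 5000 genes, which removes deep cells, it was 11.6 and 10.7% unthinned and 10.2 and 11.8% at 5000 UMIs, log2 ratios of -0.12 (-0.31 to 0.07) and 0.21 (-0.01 to 0.42). The direction of the difference in share therefore depends on how depth is treated, and a difference between mice of the groups was not tested.

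**Figure D2:**
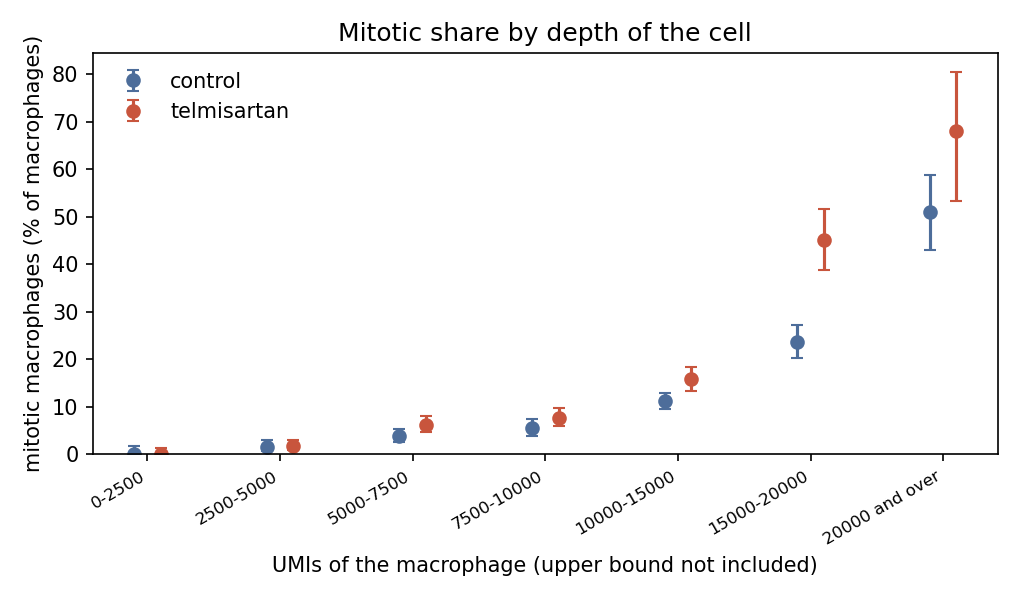
Share of macrophages that met the mitotic rule (vertical axis, %) by the UMIs of the cell (horizontal axis), with 1 point per pool and exact 95% intervals for counting error. In cells of 15000 to 20000 UMIs the share was 23.7% in control and 45.2% in telmisartan.

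Late genes of the cycle were found in part of the mitotic macrophages. *Ccnb1* (the B-type cyclin of mitosis), *Plk1* (a kinase of the mitotic spindle) and *Cdc20* (the activator of the anaphase promoting complex) peak late. With all members thinned to 5000 UMIs (443 and 388 cells, 8 and 14 shallower ones left out), none of these late genes had a UMI in 49.7% (44.9 to 54.4%) and 42.5% (37.6 to 47.6%) of members. One of them had a UMI in 30.9 and 37.9%, a pair in 14.4 and 13.9%, and all 3 in 4.97% (3.14 to 7.42%) and 5.67% (3.59 to 8.46%), 22 cells in each pool. At 5000 UMIs a gene of 100 CPM yields less than 1 UMI per cell on average, so many of the zeros come from sampling, and the shares are not shares of cells at an earlier point of the cycle. Replication transcripts were fewer where late genes were more. Members with none of the late genes had a median of 17 and 18 replication UMIs after thinning, and members with all 3 had 5.5 and 7.5. Mitosis transcripts went the other way, from a median of 24 and 27 UMIs to 55 and 46. These medians come from the same cells and depth, and are a description. A UMI of *Ccnb1* was found in 33.2% (28.8 to 37.8%) and 35.3% (30.6 to 40.3%) of thinned members, against 0.584% (0.302 to 1.02%) and 1.01% (0.578 to 1.63%) of non-mitotic macrophages (57.2 and 58.96% and 1.05 and 1.23% unthinned). For *Cdk1*, the partner of the cyclin, these shares were 65.7% (61.1 to 70.1%) and 68.3% (63.4 to 72.9%) against 3.45% (2.71 to 4.34%) and 4.79% (3.80 to 5.97%) (83.4 and 85.6% and 5.90 and 6.05% unthinned). *Cenpe*, a motor that carries chromosomes to the spindle middle, was found in 52.4% (47.6 to 57.1%) and 60.3% (55.2 to 65.2%) against 2.04% (1.48 to 2.75%) and 2.15% (1.49 to 2.98%) (76.3 and 81.1% and 2.76 and 2.33% unthinned). Non-mitotic macrophages were chosen for lacking the 6 rule genes, which are found in the same cells as these, so their low shares follow in part from the choice and are not a background of detection.

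S-phase macrophages were gated for replication genes and against the rule genes, so their high replication and low mitosis values follow in part from the gate and are a description. The median per cell over 36 genes of replication and nucleotide supply was 2748 and 2791 CPM in mitotic, 2429.7 and 2956 CPM in S-phase and 396 and 378 CPM in non-mitotic macrophages, and it includes 5 of the 6 gate genes. Over 75 genes of mitosis it was 6432 and 6622 CPM in mitotic, but 639.7 and 853 CPM in S-phase and 349.8 and 400.4 CPM in non-mitotic macrophages. *Mcm5*, a subunit of the replicative helicase, had 146 and 138 CPM in mitotic and 204 and 212 CPM in S-phase macrophages, whose gate uses it. *Pcna*, the sliding clamp of DNA polymerase and not used by either gate, had 421 and 430.1 and 352 and 357 CPM. *Rrm2*, the regulated subunit of ribonucleotide reductase, differed more, at 232 and 252 CPM in mitotic and 17.7 and 26.5 CPM in S-phase macrophages. *Pclaf*, a partner of the clamp, likewise had 628 and 590.1 against 45.6 and 76.3 CPM. Mitotic macrophages had replication medians near those of the S-phase gate, so cells that copy DNA may stand in either set. The values of *Rrm2* and *Pclaf* thus do not describe S phase as a whole. The S-phase macrophages of telmisartan number 52 and hold 641858 UMIs, so single genes rest on few molecules there.

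Set beside non-mitotic macrophages, mitotic macrophages had list medians above 0 for the division machinery, although not every listed gene was higher. A gene is counted as higher or lower when it differed at least 2-fold in the same direction in both pools. Of 10689 genes tested (at least 100 UMIs, rule genes left out), 656 were higher (6.14%) and 145 lower (1.36%), and the median gene had log2 ratios of 0.04 and 0.03. Against non-mitotic macrophages of matched depth (737 and 628 cells, medians of 13607 and 11251 UMIs) 67 of 9836 genes were lower. The cells were chosen by mitotic genes of the same cells, so the counts in these lists are a description and nothing is read from their distance to 6.14%. All 20 mitotic kinases and cyclins were higher, with list medians of 4.84 and 4.86 and summed levels of 1576 and 1599 CPM against 100.3 and 113 CPM. *Cdk1*, which drives entry into mitosis, had 285 and 289.7 CPM against 7.47 and 9.66 CPM, log2 ratios of 5.26 (5.03 to 5.49) and 4.91 (4.67 to 5.15). *Cdc25c*, the phosphatase that activates it, had the largest ratio of the list in control, with 101 and 60 UMIs in mitotic but 1 and 4 UMIs in non-mitotic macrophages, log2 ratios of 8.46 (5.95 to 13.78) and 5.62 (4.19 to 7.54). *Wee1*, the kinase that restrains CDK1, had the smallest, log2 ratios of 1.83 (1.53 to 2.14) and 1.29 (0.95 to 1.63). Activator and brake of the same kinase were thus both higher, by very different amounts.

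The checkpoint that holds back anaphase until every chromosome is attached was higher as a whole, 10 of 10 genes with medians of 3.97 and 3.90. *Bub1*, one of its kinases, had 108 and 110.0 CPM against 1.96 and 2.06 CPM, log2 ratios of 5.78 (5.35 to 6.24) and 5.74 (5.24 to 6.27). *Bub3*, the partner that also serves outside mitosis, had 120.4 and 129 CPM against 48.6 and 49.9 CPM, log2 ratios of 1.31 (1.18 to 1.44) and 1.37 (1.22 to 1.51). It had the most UMIs of the list, and *Mad1l1*, an anchor of the checkpoint at the kinetochore, had the smallest ratios at 1.16 (0.94 to 1.38) and 1.21 (0.95 to 1.46). At the centromere, *Aurkb*, *Incenp* and *Cdca8*, the partners of survivin in the chromosomal passenger complex, were all higher (medians 4.49 and 4.57). *Aurkb*, the kinase that corrects faulty attachments, had 114 and 112 CPM against 2.73 and 2.12 CPM. The kinetochore and centromere list was higher in 20 of 20 genes, with medians of 4.96 and 5.04 and sums of 1431 and 1449 CPM against 79.1 and 85.4 CPM. *Cenpe* had the most UMIs there, at 204 and 237 CPM against 4.18 and 4.01 CPM, log2 ratios of 5.61 (5.31 to 5.92) and 5.89 (5.54 to 6.26). *Ndc80*, which grips the microtubule end, had 93.8 and 91.1 CPM against 0.896 and 1.83 CPM, log2 ratios of 6.71 (6.08 to 7.41) and 5.64 (5.12 to 6.21). *Hjurp*, which loads the centromeric histone CENP-A, had 2.16 (1.99 to 2.33) and 2.40 (2.19 to 2.60), the smallest of the list in control.

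Spindle motors and microtubule proteins were higher in 21 of 21 genes, with medians of 5.28 and 5.34 and sums of 4133 and 4656 CPM against 523 and 562 CPM. The tubulin *Tuba1b* was the most abundant at 1395 and 1697 CPM against 355 and 371 CPM, log2 ratios of 1.97 (1.93 to 2.01) and 2.20 (2.15 to 2.24). *Kif11*, the motor that pushes the spindle poles apart, had 106 and 114 CPM against 1.71 and 2.18 CPM, log2 ratios of 5.96 (5.50 to 6.45) and 5.71 (5.23 to 6.23). *Tpx2*, which nucleates spindle microtubules, had 239 and 234 CPM against 4.87 and 5.77 CPM. *Ckap5*, which lengthens microtubules in all cells, had the smallest ratios, 1.56 (1.43 to 1.69) and 1.47 (1.31 to 1.63). In S-phase macrophages the list summed to 1039.6 and 1223 CPM. All 8 cytokinesis genes were higher (medians 5.40 and 4.92). *Racgap1*, of the central spindle, had 156 and 159 CPM against 6.28 and 6.48 CPM, log2 ratios of 4.64 (4.39 to 4.89) and 4.61 (4.32 to 4.91), and *Anln*, a scaffold of the contractile ring, had 101 and 102 CPM against 2.90 and 3.77 CPM.

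Only some members of the anaphase promoting complex, the ubiquitin ligase that ends mitosis, were 2-fold higher, 7 of 12 with medians of 1.06 and 1.28. They include its activator *Cdc20*, at 66.4 and 71.1 CPM against 1.66 and 0.825 CPM, log2 ratios of 5.32 (4.84 to 5.83) and 6.43 (5.66 to 7.31), and its inhibitor *Fbxo5*, at 47.03 and 37.2 CPM against 0.896 and 1.35 CPM. *Ube2s*, the enzyme that extends its ubiquitin chains, had the most UMIs at 244 and 318 CPM against 55.96 and 75.6 CPM. The core subunit *Cdc16* had 0.26 (0.03 to 0.48) and 0.52 (0.24 to 0.78). *Pttg1*, the securin that the complex destroys to free separase, had 44.6 and 55.3 CPM against 43.6 and 52.95 CPM, the smallest ratio of the list in both pools. A UMI of *Pttg1* was found in 23.3% (19.4 to 27.5%) and 22.2% (18.1 to 26.6%) of thinned mitotic and 18.8% (17.1 to 20.5%) and 22.8% (20.7 to 24.9%) of thinned non-mitotic macrophages (43.9 and 45.02% and 27.8 and 26.4% unthinned). Condensin and cohesin, the rings that compact and hold chromosomes, were higher in 12 of 14 genes (medians 2.68 and 2.77). *Smc4*, the condensin ATPase with the most UMIs, had 569 and 586 CPM against 78.1 and 75.4 CPM, log2 ratios of 2.87 (2.78 to 2.95) and 2.96 (2.86 to 3.05). *Esco2*, which locks cohesin in S phase, had 38.99 and 36.98 CPM against 0.299 and 0.471 CPM. The cohesin subunits *Stag1* and *Stag2*, which act throughout the cell cycle, stayed under 2-fold, with ratios of 0.43 (0.31 to 0.56) and 0.44 (0.29 to 0.59) and 0.20 (0.07 to 0.33) and 0.18 (0.02 to 0.34).

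DNA replication genes were higher in 27 of 28 (medians 2.43 and 2.66), with sums of 2223 and 2243 CPM against 473 and 432 CPM. None of them is a rule gene. The non-mitotic macrophages were chosen for lacking rule genes, though, so the difference may follow in part from the choice. *Pcna* had the most UMIs at 421 and 430.1 CPM against 104 and 106 CPM, log2 ratios of 2.02 (1.94 to 2.10) and 2.02 (1.93 to 2.11). *Mcm10*, needed to start the fork, had the largest ratios at 5.43 (4.77 to 6.16) and 4.85 (4.18 to 5.60). *Dna2*, which trims DNA ends during replication and repair, was the exception under 2-fold in control, with ratios of 0.83 (0.61 to 1.04) and 1.03 (0.72 to 1.33). The enzymes that supply nucleotides were all higher (8 of 8, medians 3.61 and 3.60). *Rrm2* had 232 and 252 CPM against 4.31 and 4.54 CPM, log2 ratios of 5.75 (5.46 to 6.05) and 5.80 (5.47 to 6.15), and *Tk1*, the salvage kinase for thymidine, had 158 and 165 CPM against 3.76 and 3.53 CPM. The smallest ratio in control was that of *Dtymk*, the next kinase in that path, 1.60 (1.40 to 1.80) and 2.01 (1.76 to 2.26).

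Transcripts of the replication-dependent histone clusters lack poly(A) tails in large part, bead capture relies on poly(A), and the effect of this on the values was not tested. Of 21 such genes 9 reached 100 UMIs, 3 of these were higher, and the list medians were 0.47 and 1.63. They range from 0.34 to 1.32 and from 1.08 to 2.12 over the settings. The summed level of all 21 was 531 and 410.4 CPM in mitotic, 513 and 290.2 CPM in non-mitotic and 255 and 145 CPM in S-phase macrophages. *Hist1h1c*, a linker histone, made up much of it and was lower in mitotic macrophages, at 243 and 175 CPM against 349 and 189.8 CPM, log2 ratios of -0.52 (-0.60 to -0.45) and -0.11 (-0.22 to -0.01). *Hist1h1b*, a linker histone of dividing cells, was higher at 26.2 and 22.5 CPM against 2.77 and 0.471 CPM, log2 ratios of 3.24 (2.82 to 3.67) and 5.58 (4.55 to 6.82). Histone variants and chaperones were higher in 8 of 11 genes (medians 2.55 and 2.49). *H2afz*, a variant made throughout the cycle, had 1245 and 1233 CPM against 341 and 345 CPM, log2 ratios of 1.87 (1.83 to 1.91) and 1.84 (1.79 to 1.89), and *Hmgb2*, a chromatin protein, had 1096 and 1041 CPM against 135 and 125 CPM, log2 ratios of 3.02 (2.96 to 3.08) and 3.05 (2.98 to 3.13). *Asf1b*, the chaperone of new histones H3 and H4, had the largest ratios at 4.62 (4.31 to 4.95) and 4.88 (4.51 to 5.27), and *H3f3b*, which encodes the replacement histone H3.3, the smallest at 0.10 (0.07 to 0.13) and 0.23 (0.19 to 0.26).

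Among the regulators of these programs, 9 of 13 E2F, MYBL2 and FOXM1 genes were higher (medians 1.45 and 1.65). *Foxm1*, the activator of mitotic genes, had 47.2 and 47.8 CPM against 0.896 and 1.06 CPM, log2 ratios of 5.72 (5.08 to 6.43) and 5.49 (4.80 to 6.27). *Mybl2*, its partner factor, had 31.4 and 30.6 CPM against 1.20 and 1.12 CPM. *E2f7*, a repressor of the E2F family, had 33.8 and 33.3 CPM against 0.384 and 0.766 CPM, while *E2f1*, an activator, had 57.3 and 52.97 CPM against 25.5 and 26.03 CPM. The pocket protein *Rb1* had 0.05 (-0.10 to 0.19) and 0.20 (0.02 to 0.38) and was similar in both kinds of macrophage. Cyclins and kinases of G1 were higher in 5 of 10 genes (medians 0.88 and 0.78), among them *Ccne2*, the cyclin of S-phase entry, at 38.4 and 35.2 CPM against 1.20 and 1.06 CPM, log2 ratios of 5.01 (4.44 to 5.62) and 5.06 (4.35 to 5.84). D-type cyclins, which answer to growth factors, were under 2-fold. *Ccnd1* had the most UMIs at 225 and 191 CPM against 188 and 194 CPM, and *Cdk6* had the lowest ratios, -0.52 (-0.65 to -0.40) and -0.55 (-0.71 to -0.40). In S-phase macrophages *Ccnd1* was at 433 and 365 CPM.

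Inhibitors of the cycle were a little lower as a list, with sums of 1975 and 2168 CPM against 2414 and 2583 CPM and medians of -0.08 and -0.14, although 2 of 10 were 2-fold higher and none 2-fold lower. The higher ones were CDK4 and CDK6 inhibitors of the INK4 family, *Cdkn2c* at 63.2 and 60.3 CPM against 2.65 and 3.42 CPM, log2 ratios of 4.58 (4.19 to 4.99) and 4.14 (3.73 to 4.57), and *Cdkn2d* at 72.6 and 65.1 CPM against 11.1 and 14.8 CPM, log2 ratios of 2.71 (2.49 to 2.93) and 2.14 (1.90 to 2.38). *Cdkn1a*, which encodes p21, had the most UMIs at 577 and 859 CPM against 634 and 918 CPM. *Mxd4*, an antagonist of MYC, had the lowest ratio in control, -1.13 (-1.42 to -0.84) and -0.80 (-1.11 to -0.51). No p53 target of 7 tested differed 2-fold in both pools, with medians of -0.08 and 0.20, the second of which changes sign under 2 of the other settings (lowest value -0.01). *Mdm2*, the ligase of p53, had 82.7 and 134 CPM against 128 and 205 CPM.

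The 12 genes with the largest ratios, ranked by the smaller of both pools, serve several steps of division. *Hmmr*, which organizes spindle poles, had 112 and 120.2 CPM against 0.384 and 1.30 CPM, log2 ratios of 8.19 (7.25 to 9.32) and 6.54 (5.92 to 7.22). *Pbk*, a mitotic kinase, had 7.33 (6.48 to 8.34) and 6.73 (5.96 to 7.61), and *Nuf2*, of the NDC80 complex, 6.44 (5.91 to 7.03) and 6.34 (5.72 to 7.05). *Pclaf* was the deepest of them, with 4217 and 3064 UMIs in mitotic and 172 and 109 UMIs in non-mitotic macrophages, log2 ratios of 6.42 (6.20 to 6.65) and 6.52 (6.25 to 6.81). The others had 6 to 30 UMIs per pool in non-mitotic macrophages, so their ratios are wide. They were *Kif20a* and *Cep55* of cytokinesis (6.10 [5.57 to 6.68] and 6.34 [5.65 to 7.14] and 6.15 [5.50 to 6.87] and 5.99 [5.26 to 6.81]), *Nek2*, a centrosome kinase (7.11 [5.96 to 8.57] and 6.05 [5.14 to 7.13]), *Kif4*, a chromosome motor (6.03 [5.40 to 6.74] and 6.31 [5.51 to 7.23]), *Pimreg*, a substrate of the anaphase promoting complex (6.06 [5.15 to 7.15] and 6.01 [4.93 to 7.35]), and *Esco2* (7.03 [5.96 to 8.36] and 6.29 [5.29 to 7.53]). *Aspm*, which holds spindle poles together, had 6.50 (5.68 to 7.47) and 6.71 (5.81 to 7.78), and *Neil3*, a glycosylase that repairs DNA in S phase, 7.33 (6.34 to 8.55) and 6.03 (5.19 to 6.998). Among non-mitotic macrophages matched in depth to the mitotic ones, *Neil3* had 8.14 and 8.39, *Aspm* 7.31 and 7.81, *Pimreg* 7.20 and *Cep55* 6.96 in control, and *Kif4* 7.20 in telmisartan. With at most 10% mitochondrial UMIs *Pbk* had 7.39 in telmisartan. With the mean over cells *Esco2* had 7.81 and 5.59, *Neil3* 6.58 and 5.21, and *Aspm* 6.03 in telmisartan. All kept their direction.

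Promoters were searched for motifs known from cell cycle genes. The cell cycle homology region, through which the MYBL2 and FOXM1 complex acts, is written here as TTTGAA or TTCGAA, and the CCAAT box, bound by NF-Y, as CCAAT. Both were searched on either strand over 250 bases before to 50 bases after the start of each gene, and matches of both motifs can overlap by 1 base. Of the 6 rule genes 5 matched the RefSeq promoter table (GRCm38.p6), with 6 promoters, and *Ccna2* has no entry there. The homology region was found in 5 of the 6 promoters (83.3%) and CCAAT in 5 (83.3%), and *Birc5* held neither. *Prc1* has 2 of the 6 promoters, which overlap and hold the same matches, and 1 of them is shown. Over all 32851 promoters of this length 19.2% hold the homology region, 37.4% hold CCAAT and 7.52% hold both. Among 85 promoters of 77 matched genes of the mitotic lists (92 symbols) the shares were 64.7, 69.4 and 50.6%. Among 26 promoters of the replication list they were 23.1, 57.7 and 19.2%. Promoters of genes 2-fold higher in mitotic macrophages (638 of 528 genes) held them in 30.6, 53.4 and 18.2%, those of genes 2-fold lower (152) in 13.8, 32.9 and 3.95%, and those of all genes tested (10809) in 14.5, 37.8 and 5.96%. A match is a description of the letters and not a binding site. The sequences of the rule genes are shown because their joint presence chose the cells, 5′ to 3′ on the strand of the gene and with both motifs in capitals, at chr11:117848987-117849286 (*Birc5*, plus strand), chr7:135716330-135716629 (*Mki67*, minus strand), chr7:80294201-80294500 (*Prc1*, plus strand), chr11:99024140-99024439 (*Top2a*, minus strand), chr2:164769679-164769978 (*Ube2c*, plus strand).
Birc5: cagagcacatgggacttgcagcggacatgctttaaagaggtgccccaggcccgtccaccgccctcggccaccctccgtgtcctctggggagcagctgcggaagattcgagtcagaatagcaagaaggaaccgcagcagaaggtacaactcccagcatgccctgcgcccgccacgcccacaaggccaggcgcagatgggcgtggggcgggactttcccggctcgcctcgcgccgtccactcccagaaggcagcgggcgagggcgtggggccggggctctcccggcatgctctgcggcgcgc
Mki67: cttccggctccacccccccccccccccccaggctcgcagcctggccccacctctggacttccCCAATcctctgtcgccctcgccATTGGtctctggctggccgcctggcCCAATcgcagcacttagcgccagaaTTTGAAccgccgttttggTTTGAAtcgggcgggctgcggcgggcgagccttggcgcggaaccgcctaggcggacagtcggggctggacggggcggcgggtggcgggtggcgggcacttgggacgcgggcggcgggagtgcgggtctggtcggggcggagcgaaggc
Prc1: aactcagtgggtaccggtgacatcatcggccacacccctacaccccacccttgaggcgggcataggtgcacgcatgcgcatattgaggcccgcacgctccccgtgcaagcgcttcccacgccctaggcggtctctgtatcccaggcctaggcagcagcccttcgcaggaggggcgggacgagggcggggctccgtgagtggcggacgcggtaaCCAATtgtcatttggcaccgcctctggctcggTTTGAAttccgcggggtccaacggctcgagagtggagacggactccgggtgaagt
Top2a: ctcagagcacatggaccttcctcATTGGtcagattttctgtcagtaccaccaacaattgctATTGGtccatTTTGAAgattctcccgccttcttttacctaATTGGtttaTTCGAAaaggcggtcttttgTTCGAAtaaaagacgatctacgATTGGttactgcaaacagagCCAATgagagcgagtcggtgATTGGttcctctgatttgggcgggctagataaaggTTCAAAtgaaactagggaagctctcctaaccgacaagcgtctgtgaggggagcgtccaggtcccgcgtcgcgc
Ube2c: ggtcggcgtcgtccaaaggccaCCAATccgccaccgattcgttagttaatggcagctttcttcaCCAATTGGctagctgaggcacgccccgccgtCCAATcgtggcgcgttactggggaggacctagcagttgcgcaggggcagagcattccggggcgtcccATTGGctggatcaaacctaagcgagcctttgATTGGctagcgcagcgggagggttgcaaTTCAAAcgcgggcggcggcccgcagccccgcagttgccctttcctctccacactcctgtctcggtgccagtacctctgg

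**Figure D3:**
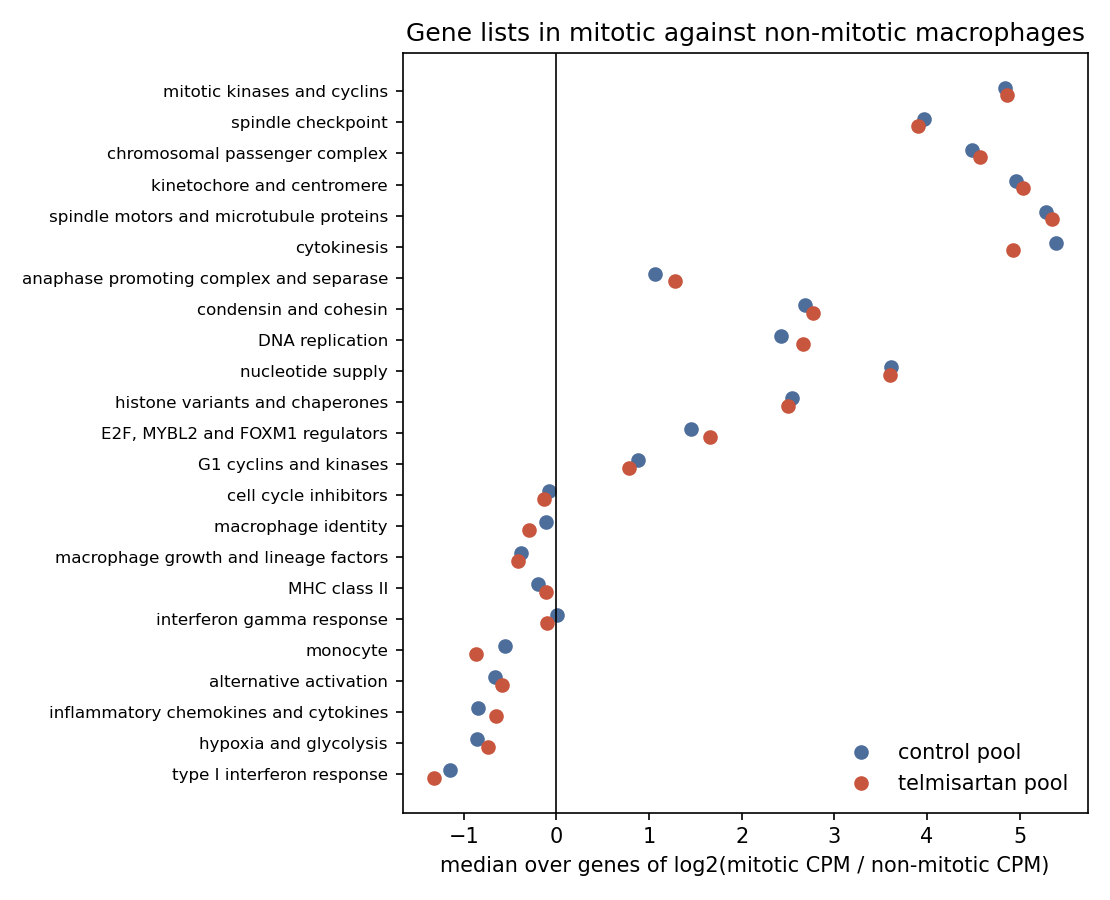
Median over the genes of each list (vertical axis) of the log2 ratio of CPM in mitotic over non-mitotic macrophages (horizontal axis), with 1 point per pool. Division lists lie to the right, up to 5.40 for cytokinesis in control, and type I interferon genes lie at -1.15 and -1.32.

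In several programs of tumor macrophages some genes were lower in the mitotic ones, and the counts below stand beside 1.36% of all genes tested, or 67 of 9836 at matched depth. Monocyte genes had medians of -0.55 and -0.87 and sums of 1026 and 1029.6 CPM against 1570.0 and 1754 CPM, with 2 of 8 genes lower and none higher. *Plac8*, abundant in blood monocytes, was one of them at 19.9 and 38.1 CPM against 78.9 and 193 CPM, log2 ratios of -1.98 (-2.25 to -1.73) and -2.34 (-2.55 to -2.13), and *Ly6c2*, the monocyte surface antigen, the other at 38.2 and 68.2 CPM against 87.9 and 226 CPM, log2 ratios of -1.20 (-1.39 to -1.01) and -1.73 (-1.89 to -1.57). *Ccr2*, the receptor that brings monocytes into tissue, had -0.44 (-0.50 to -0.39) and -0.09 (-0.16 to -0.03) and *Itga4*, an integrin subunit, 0.06 (-0.06 to 0.19) and -0.12 (-0.28 to 0.04). Thinned to 5000 UMIs, *Ly6c2* was found in 8.80% (6.34 to 11.8%) and 14.2% (10.9 to 18.05%) of mitotic and 16.2% (14.6 to 17.9%) and 24.5% (22.4 to 26.7%) of non-mitotic macrophages (17.7 and 25.9% and 22.7 and 32.7% unthinned). Against non-mitotic macrophages of matched depth the list medians were nearer to 0, -0.17 and -0.45.

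Type I interferon genes, induced by viral or self nucleic acids, were lower in 8 of 10, beside 1.36% of all genes (medians -1.15 and -1.32, sums of 86.02 and 155 CPM against 208 and 408 CPM). *Isg15*, a ubiquitin-like modifier, had the most UMIs at 24.3 and 40.4 CPM against 40.9 and 84.2 CPM, log2 ratios of -0.75 (-1.001 to -0.51) and -1.06 (-1.27 to -0.85). *Rsad2*, which encodes the antiviral enzyme viperin, had 7.29 and 21.96 CPM against 43.1 and 87.00 CPM, log2 ratios of -2.56 (-3.01 to -2.15) and -1.99 (-2.27 to -1.71). At matched depth the medians were -1.15 and -0.73. Interferon gamma genes showed no such pattern. None of 11 was 2-fold higher or lower, beside 6.14 and 1.36% of all genes, and nothing is read from this count. The medians of 0.01 and -0.10 change sign under 6 and 1 of the other settings. *Cxcl9*, a T cell attractant and the member with the most UMIs, had 842 and 506 CPM against 836 and 402 CPM, and *Cxcl10*, its relative, had 595 and 661 CPM against 367 and 376 CPM. The list medians of the 2 interferon programs thus stood apart in the same cells.

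Hypoxia and glycolysis genes were lower in 3 of 11, beside 1.36% of all genes, with medians of -0.86 and -0.73 and sums of 3001 and 3525 CPM against 4910.2 and 5136 CPM. *Vegfa*, the vessel growth factor, had 246 and 364 CPM against 714 and 829 CPM, log2 ratios of -1.54 (-1.61 to -1.47) and -1.19 (-1.26 to -1.12). *Egln3*, a prolyl hydroxylase that tags HIF, had 48.96 and 54.3 CPM against 171 and 153 CPM, log2 ratios of -1.81 (-1.97 to -1.64) and -1.50 (-1.68 to -1.32), the lowest of the list in both pools. The glycolytic enzymes *Pgk1* and *Ldha* differed less, with -0.38 (-0.41 to -0.34) and -0.25 (-0.29 to -0.21) and -0.27 (-0.32 to -0.22) and -0.07 (-0.12 to -0.02). Inflammatory chemokines and cytokines were lower in 2 of 11, beside the same share of all genes (medians -0.84 and -0.65). *Cxcl2*, a neutrophil attractant, had the most UMIs at 2656 and 3126 CPM against 4339 and 4946 CPM, log2 ratios of -0.71 (-0.73 to -0.69) and -0.66 (-0.69 to -0.64). *Il6*, the acute phase cytokine, had 3.42 and 16.8 CPM against 22.7 and 40.1 CPM, and *Cxcl3* had 86.9 and 97.8 CPM against 576 and 292 CPM. *Il1b* had 1599 and 2458 CPM against 3288 and 3863 CPM, and *Ccl2*, which attracts monocytes, had 0.17 (0.13 to 0.21) and -0.03 (-0.07 to 0.01), the highest of the list.

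The study named its macrophage subclusters by 3 genes each, chosen on these cells, and mitotic macrophages are described by them here. *Cxcl3*, *F3* (tissue factor) and *Slpi* (a protease inhibitor) were all lower, with medians of -2.34 and -1.58 (-0.96 in telmisartan when 3 of the 6 genes were enough), and *F3* had 5.66 and 8.67 CPM against 28.6 and 26.4 CPM. *Rsad2*, *Slfn4* and *Plac8* were all lower too, with medians of -1.98 and -2.34, or -0.64 and -1.04 at matched depth. *Cd24a*, *Vcan* and *Lilra6* had medians of -1.49 and -0.59, or -1.10 and -0.48 at matched depth, none 2-fold lower in both pools. Of *Cbr2*, *Fcrls* and *Folr2*, the last being a folate receptor, *Fcrls* was higher at 97.5 and 92.4 CPM against 44.1 and 36.2 CPM, log2 ratios of 1.14 (1.001 to 1.29) and 1.35 (1.18 to 1.53), and the medians were 0.49 and 0.36. None of *H2-Eb1*, *H2-Ab1* and *Il1r2* differed 2-fold (medians -0.20 and -0.17, the second 0.04 at matched depth), nor did *Cxcl9*, *Serpina3g* and *Iigp1* (medians 0.08 and 0.28, the first below 0 under 3 other settings and the second -0.40 with members of middle depth).

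MHC class II genes, which present antigen to CD4 T cells, were close to the level of other macrophages. None of 7 differed 2-fold, and the medians were -0.20 and -0.11, the second 0.03 at matched depth. *Cd74*, the invariant chain, had the most UMIs at 4909 and 3714 CPM against 5820.0 and 4285 CPM. Genes of alternative activation were lower in 1 of 9 (medians -0.66 and -0.59). That gene was *Mmp9*, a gelatinase, which rests on 1 UMI in each pool of mitotic macrophages (-5.64 [-10.95 to -3.14] and -2.38 [-7.76 to 0.30]). *Spp1*, osteopontin, had 2561 and 2091 CPM against 3735 and 2189 CPM, and *Mrc1*, the mannose receptor, had 0.18 (0.12 to 0.23) and 0.23 (0.15 to 0.31). No immediate early gene of 11 differed 2-fold (medians -0.33 and -0.17), and *Fos*, the member with the most UMIs, had 3218 and 2170.0 CPM against 2841 and 2058 CPM.

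Growth-linked genes (one-carbon and purine enzymes, chaperones and nuclear transport) were higher in part, 4 of 9 beside 6.14% of all genes, with medians of 1.14 and 0.84. *Ran*, the GTPase of nuclear transport and spindle assembly, had 850.1 and 763 CPM against 363 and 283 CPM, log2 ratios of 1.23 (1.18 to 1.28) and 1.43 (1.37 to 1.49). *Mthfd2*, a mitochondrial one-carbon enzyme that feeds purine synthesis, had 112 and 97.6 CPM against 50.9 and 35.5 CPM, log2 ratios of 1.14 (1.01 to 1.28) and 1.46 (1.29 to 1.63), and *Shmt2*, its neighbor in the pathway, had 71.9 and 64.7 CPM against 25.8 and 24.03 CPM. *Hsp90ab1*, a chaperone, had the smallest ratios, 0.10 (0.07 to 0.13) and 0.08 (0.05 to 0.12). Receptors and factors that set macrophage number differed less. None of 12 was 2-fold higher or lower, with medians of -0.39 and -0.41. *Klf4*, a monocyte differentiation factor, had -0.10 (-0.15 to -0.05) and -0.40 (-0.45 to -0.35). *Csf1*, the ligand of CSF1R, had 15.3 and 19.3 CPM against 31.6 and 25.7 CPM.

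The 12 genes with the lowest ratios were of mixed function and mostly thin in mitotic macrophages. Ranked by the smaller difference of both pools, *Kdm5b* was the lowest, although *Mmp9* and *Mirt2* were lower in control. *Kdm5b*, a demethylase that removes the active mark from histone H3 lysine 4, had 17 and 19 UMIs in mitotic macrophages and 2.53 and 3.66 CPM against 28.98 and 29.3 CPM, log2 ratios of -3.52 (-4.31 to -2.83) and -3.003 (-3.75 to -2.34). In control the ratio was -2.79 when 3 of the 6 genes were enough for the rule. *Inhba*, which encodes the activin A subunit, was the deepest of them with 684 and 625 UMIs, at 102 and 120.4 CPM against 729 and 486 CPM, log2 ratios of -2.84 (-2.95 to -2.73) and -2.01 (-2.13 to -1.90). *Mmp13*, a collagenase, had 21.3 and 19.1 CPM against 90.4 and 125 CPM, log2 ratios of -2.09 (-2.34 to -1.84) and -2.71 (-3.02 to -2.42). *Slfn5*, an interferon-induced Schlafen gene, had 15.9 and 25.04 CPM against 73.98 and 114 CPM, log2 ratios of -2.22 (-2.51 to -1.93) and -2.19 (-2.45 to -1.93), and *Tcp11l2* had -2.26 (-2.68 to -1.87) and -2.06 (-2.38 to -1.76). *Ppbp*, a platelet chemokine, had -2.83 (-3.48 to -2.24) and -2.52 (-3.60 to -1.60), and -2.24 and -1.36 at matched depth. The rest had 2 to 7 UMIs per pool of mitotic macrophages. These were *S1pr3*, a receptor of sphingosine 1-phosphate (-2.41 [-3.76 to -1.33] and -2.71 [-4.36 to -1.44]), *Sphk1*, the kinase that makes it (-2.41 [-4.32 to -0.99] and -2.49 [-3.96 to -1.32]), *Ifit3b* (-2.18 [-4.10 to -0.75] and -2.66 [-4.98 to -1.05]), *Klhl3* (-2.01 [-3.49 to -0.82] and -2.12 [-4.05 to -0.69]) and the noncoding *Mirt2* (-4.16 [-7.23 to -2.28] and -2.16 [-3.82 to -0.87]). Their ratios moved with the settings, from -3.86 to -1.77 for *S1pr3* and from -3.50 to -0.00 for *Mirt2* in telmisartan, and from -2.60 to -1.71 for *Sphk1*, -3.97 to -1.49 for *Ifit3b* and -2.73 to -1.50 for *Klhl3* in control. In the other pool they ranged from -4.98 to -2.97 for *Mirt2*, -3.32 to -2.10 for *Sphk1* and -3.002 to -1.90 for *Klhl3*. *Mmp9*, given above, ranged from -5.95 to -4.03 in control and from -3.07 to -0.45 in telmisartan.

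Division genes of mitotic macrophages had similar levels in both pools, where the cells were chosen by the same mitotic genes, and the part of this choice in the similarity was not tested. Ratios from here on are log2 of telmisartan over control CPM. Of 8322 genes with at least 100 UMIs in mitotic macrophages, 45 were at least 2-fold higher in telmisartan (0.541%) and 13 at least 2-fold lower (0.156%). The balance depends on the setting, with 23 higher and 20 lower of 6683 in members of middle depth (233 and 194 cells) and 22 lower at a tag share of 90%. The median gene was at -0.04, with quartiles of -0.18 and 0.12, and 57.2% of all genes tested were below 0. In the mitotic lists none of the genes tested was 2-fold higher or lower, and nothing is read from this given the small shares over all genes. Mitotic kinases and cyclins summed to a ratio of 0.02 (-0.02 to 0.06), below 0 under 1 other setting, and kinetochore genes to 0.02 (-0.03 to 0.06), likewise. The checkpoint list was at -0.07 (-0.13 to -0.00) (above 0 in members of middle depth), the chromosomal passenger complex at 0.07 (-0.01 to 0.15) (below 0 with 5 of the 6 genes required), and cytokinesis at -0.02 (-0.08 to 0.05) (above 0 under 7 settings). *Cdk1* was at 285 and 289.7 CPM, 0.02 (-0.08 to 0.12), and *Ccnb1* at 98.7 and 102 CPM, 0.05 (-0.12 to 0.21). Spindle motors and microtubule proteins were a little higher at 0.17 (0.15 to 0.20), with 0.10 to 0.31 over the settings. *Tuba1b*, the most abundant of them, had 1395 and 1697 CPM (0.28, 0.24 to 0.33). *Ckap2l*, a spindle protein, had the largest ratio apart from *Kif18b*, at 0.43 (0.31 to 0.56). The anaphase promoting complex was at 0.13 (0.08 to 0.18), with *Ube2s* at 244 and 318 CPM (0.38, 0.28 to 0.48).

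Replication genes of these cells had ratios near 0. The replication list summed to 0.01 (-0.02 to 0.05), against -0.13 (-0.17 to -0.09) in non-mitotic macrophages, and the first is below 0 under 4 settings, the mean over cells among them. Of its genes, *Pcna* was at 421 and 430.1 CPM (0.03, -0.05 to 0.11) and *Mcm5* at 146 and 138 CPM (-0.09, -0.23 to 0.05). Nucleotide supply was at 0.04 (-0.01 to 0.10) against -0.21 (-0.31 to -0.10) in non-mitotic macrophages, below 0 in the former without the upper gene limit. Condensin and cohesin were at 0.00 (-0.04 to 0.04), with either sign under the settings (-0.07 to 0.09), and E2F, MYBL2 and FOXM1 regulators at 0.02 (-0.04 to 0.09) (-0.01 to 0.22 over the settings). Replication-dependent histones were lower in telmisartan, at -0.37 (-0.45 to -0.29) in mitotic and -0.82 (-0.87 to -0.77) in non-mitotic macrophages. *Hist1h1c* had 243 and 175 CPM (-0.47, -0.59 to -0.35), and *Hist1h1d* was the only one of the list at least 2-fold lower, -1.48 (-2.18 to -0.82). Histone variants and chaperones were at -0.07 (-0.09 to -0.05), above 0 in members of middle depth.

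G1 cyclins and kinases were at -0.13 (-0.19 to -0.07), with 9 of 10 genes below 0, none by 2-fold, beside 57.2% of all genes. *Myc*, the growth regulator, had 43.01 and 26.8 CPM (-0.68, -0.99 to -0.39) in mitotic macrophages, against 0.17 (0.01 to 0.34) in non-mitotic ones. Growth-linked genes were below 0 in 9 of 9, again none by 2-fold and beside the same share of all genes, with a summed ratio of -0.16 (-0.19 to -0.13). *Mthfd2* had -0.20 (-0.37 to -0.04). Inhibitors of the cycle summed to 0.13 (0.10 to 0.17), and *Cdkn1a* has the most UMIs of the sum. Of them 6 of 10 were below 0, beside 57.2% of all genes, with a median of -0.06 that changes sign under 2 settings. The p53 targets summed to 0.33 (0.25 to 0.42). *Cdkn1a* had 577 and 859 CPM (0.57, 0.51 to 0.64) against 0.54 (0.50 to 0.57) in non-mitotic macrophages, and *Mdm2* had 82.7 and 134 CPM (0.70, 0.54 to 0.86) against 0.68 (0.61 to 0.75). Both are known to be induced by p53, and both were higher by a similar amount in mitotic and non-mitotic cells. A part of p53 in this was not tested.

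**Figure D4:**
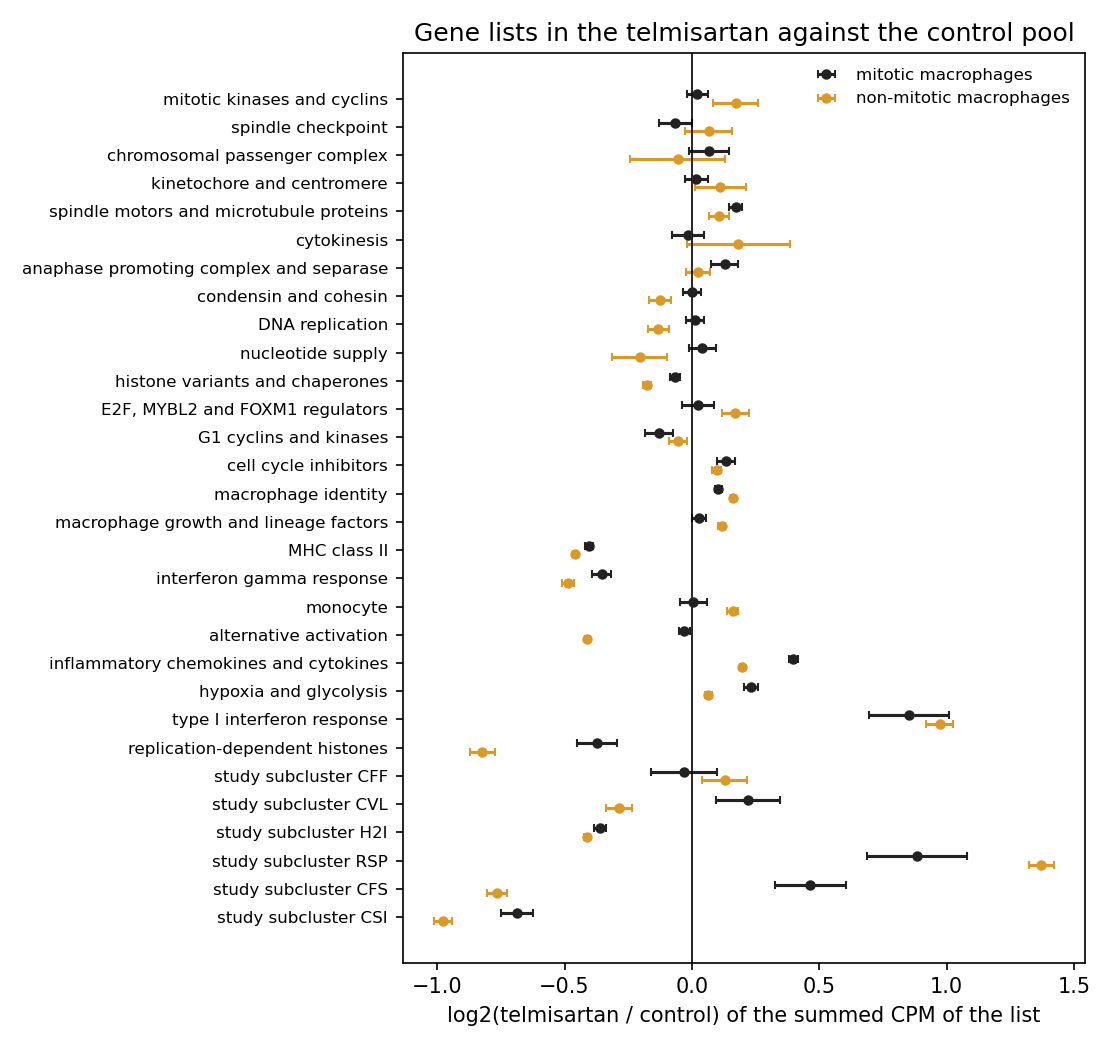
Log2 ratio of the summed CPM of each list (vertical axis) in the telmisartan over the control pool (horizontal axis), with 1 point for mitotic and 1 for non-mitotic macrophages and 95% intervals for counting error. Mitotic kinases lie at 0.02 (below 0 under 1 other setting) and type I interferon genes at 0.85 in mitotic macrophages.

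Both kinds of macrophage come from the same pools, so their ratios are given side by side, and a difference between them was not tested. Type I interferon genes summed to 0.85 (0.70 to 1.01) in mitotic and 0.97 (0.92 to 1.03) in non-mitotic macrophages. These values depend on the setting, with 0.56 in mitotic macrophages when the highest Scrublet scores were removed and 0.38 in non-mitotic macrophages of matched depth. *Rsad2* had 7.29 and 21.96 CPM (1.59, 1.10 to 2.10) and was the member at least 2-fold higher among those with 100 UMIs. *Isg15* had 24.3 and 40.4 CPM (0.74, 0.44 to 1.04). Interferon gamma genes were lower in telmisartan, at -0.35 (-0.39 to -0.32) against -0.49 (-0.51 to -0.47), and at -0.75 in members of middle depth. *Cxcl9* had 842 and 506 CPM (-0.73, -0.80 to -0.67) and a UMI in 43.3% (38.7 to 48.1%) and 29.9% (25.4 to 34.7%) of thinned members (54.1 and 39.8% unthinned). *Gbp4*, an interferon-induced GTPase, was at 41.8 and 21.6 CPM (-0.96, -1.28 to -0.63). The 2 interferon programs therefore had opposite signs. MHC class II genes were below 0 in 7 of 7, none by 2-fold and beside 57.2% of all genes, with a sum at -0.40 (-0.42 to -0.39) against -0.46 (-0.47 to -0.45), and *Cd74* had 4909 and 3714 CPM (-0.40, -0.43 to -0.38). *Ciita*, their master activator, had 39.3 and 26.6 CPM (-0.56, -0.87 to -0.26).

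Inflammatory chemokines and cytokines were above 0 in 11 of 11 genes, while 57.2% of all genes were below 0. Of the 11, 2 were higher by 2-fold, beside 0.541% of all genes. Their sum was at 0.40 (0.38 to 0.42) against 0.20 (0.19 to 0.21) in non-mitotic macrophages. *Cxcl1* had 209.8 and 622 CPM (1.57, 1.48 to 1.66), and *Il6* had 23 and 87 UMIs (2.29, 1.61 to 3.02), the members at least 2-fold higher. *Il1b* had 1599 and 2458 CPM (0.62, 0.58 to 0.66). A few members had the other sign in non-mitotic macrophages, among them *Il1a* at -0.51 (-0.55 to -0.47) against 0.28 (0.17 to 0.38) in mitotic ones and *Cxcl3* at -0.98 (-1.03 to -0.93) against 0.17 (-0.00 to 0.34). Hypoxia and glycolysis genes were above 0 in 10 of 10 tested, none by 2-fold, beside 57.2% of all genes below 0. Their sum was at 0.23 (0.20 to 0.26) against 0.06 (0.05 to 0.08). *Vegfa* had 246 and 364 CPM (0.57, 0.47 to 0.66). Immediate early genes split within the list, with *Fos* at 3218 and 2170.0 CPM (-0.57, -0.60 to -0.54) and *Nr4a1*, a nuclear receptor, at 421 and 713 CPM (0.76, 0.69 to 0.83). The sum was at 0.03 (0.01 to 0.05), below 0 under 1 setting. In this list 8 of 11 genes were above 0, beside 57.2% of all genes below 0, with a median of 0.53. *Nr4a3*, of the same receptor family, was at least 2-fold higher.

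Genes of alternative activation summed to -0.03 (-0.05 to -0.01) in mitotic (above 0 under 3 settings, TMM factors among them) and to -0.41 (-0.42 to -0.40) in non-mitotic macrophages. *Ccl17*, a chemokine for T cells, had 86.5 and 114 CPM (0.40, 0.24 to 0.57) against -1.48 (-1.59 to -1.37), so its sign differed between the kinds of macrophage. *Ccl24*, an eosinophil attractant, was the member at least 2-fold lower, with 151 UMIs in control and 10 in telmisartan (-3.54, -4.63 to -2.63). *Retnla* had 4 and 27 UMIs (3.13, 1.61 to 5.10). *Mrc1* had 462 and 336 CPM (-0.46, -0.55 to -0.37), and *Il10*, an anti-inflammatory cytokine, had 6.55 and 12.9 CPM (0.98, 0.41 to 1.56) against 2.23 (2.01 to 2.46) in non-mitotic macrophages. Monocyte genes summed to 0.01 (-0.05 to 0.06), with either sign under the settings, against 0.16 (0.14 to 0.18). *Ly6c2* had 38.2 and 68.2 CPM (0.83, 0.60 to 1.07) against 1.36 (1.28 to 1.44), and *Plac8* had 19.9 and 38.1 CPM (0.94, 0.61 to 1.26). *Chil3*, a chitinase-like protein of monocytes, was the member at least 2-fold lower, at -1.32 (-1.55 to -1.09). Macrophage identity genes summed to 0.10 (0.09 to 0.12), led by *Apoe* at 961 and 1702 CPM (0.82, 0.78 to 0.87). Of them 8 of 15 were below 0, beside 57.2% of all genes, with a median of -0.01 that changes sign under 6 settings. Growth and lineage factors summed to 0.03 (0.00 to 0.06).

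Of the sets that name the study's subclusters, *Rsad2*, *Slfn4* and *Plac8* summed to 0.88 (0.69 to 1.08) against 1.37 (1.32 to 1.42) in non-mitotic macrophages, but to 0.04 in members of middle depth. *Cxcl3*, *F3* and *Slpi* summed to 0.46 (0.32 to 0.60) (0.16 at middle depth) against -0.76 (-0.80 to -0.72). In that set *Slpi* was at least 2-fold higher, at 29.02 and 61.2 CPM (1.08, 0.82 to 1.34) against -0.23 (-0.31 to -0.15). *Cd24a*, *Vcan* and *Lilra6* were at 0.22 (0.09 to 0.34) against -0.28 (-0.34 to -0.23). Both of the latter sets thus had opposite signs in mitotic and non-mitotic macrophages. *Cxcl9*, *Serpina3g* and *Iigp1* were at -0.69 (-0.75 to -0.63) (-1.29 at middle depth) against -0.98 (-1.01 to -0.94), and *H2-Eb1*, *H2-Ab1* and *Il1r2* at -0.36 (-0.39 to -0.34) against -0.41 (-0.42 to -0.40). *Cbr2*, *Fcrls* and *Folr2* were at -0.03 (-0.16 to 0.10), with either sign under the settings, TMM factors among them.

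The largest ratios among genes with at least 200 UMIs were led by *Nr4a3*, at 58.6 and 183 CPM (1.64, 1.47 to 1.81) in mitotic and 1.47 (1.39 to 1.54) in non-mitotic macrophages. *Kdm6b*, a demethylase of histone H3 lysine 27, had 68.6 and 187 CPM (1.45, 1.28 to 1.61) against 1.32 (1.25 to 1.39). *Nfkbie*, an inhibitor of NF-kB, had 81.7 and 197 CPM (1.27, 1.12 to 1.42) against 1.33 (1.26 to 1.40). Inducible regulators and surface receptors fill most of the remaining places. *Maff*, a small MAF factor, had 1.23 (0.96 to 1.51), *Usp2*, a deubiquitinase, 1.35 (1.000 to 1.71), and *Ptafr*, the receptor of platelet-activating factor, 1.19 (0.96 to 1.42). *Trem3*, a myeloid receptor, had 1.16 (0.75 to 1.58), *Slc25a33*, a mitochondrial pyrimidine carrier, 1.32 (0.89 to 1.76), *Arl5c*, a small GTPase, 1.23 (0.84 to 1.63) and *Gm11290* 1.30 (0.91 to 1.70). All of these, *Cxcl1* included, were above 0 in non-mitotic macrophages as well, the highest being *Nr4a3*.

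Among the 12 lowest, *Ccl8*, a monocyte chemokine, had 64.1 and 23.7 CPM (-1.44, -1.74 to -1.14) in mitotic and -0.55 (-0.71 to -0.39) in non-mitotic macrophages. *Chil3*, of the monocyte list, had 98.4 and 39.5 CPM (-1.32, -1.55 to -1.09) against -0.05 (-0.13 to 0.02), and -0.29 in members of middle depth. *Mgl2*, a lectin of alternatively activated macrophages, had 616 and 285 CPM (-1.11, -1.20 to -1.03) against -1.15 (-1.21 to -1.10). *Serpina3g*, a protease inhibitor, had 41.4 and 19.8 CPM (-1.06, -1.40 to -0.73), and -1.74 in members of middle depth. The genes of this group belong to several pathways. *Slamf8*, a surface receptor of macrophages, had -0.999 (-1.35 to -0.66), *Lpl*, lipoprotein lipase, -0.99 (-1.16 to -0.83) and *Lpar6*, a lysophosphatidic acid receptor, -0.91 (-1.22 to -0.60). *Tdp1*, a DNA repair enzyme, had -0.92 (-1.33 to -0.51), *Wdr77*, a partner of an arginine methyltransferase, -0.84 (-1.19 to -0.49) and *Fnbp1l*, which shapes membranes, -0.90 (-1.33 to -0.47). *Rnd3*, an atypical GTPase that loosens the actin skeleton, had 22.9 and 11.9 CPM (-0.94, -1.39 to -0.51) in mitotic but 0.67 (0.48 to 0.86) in non-mitotic macrophages. Of the genes named here as highest or lowest it is the one with opposite signs in both kinds of macrophage. *Cd209a*, a lectin gene also used as a dendritic marker above, had 65 and 12 UMIs in mitotic macrophages (-2.07, -3.09 to -1.16) against 1.81 (1.13 to 2.52) in the others, and was chosen after its values were seen.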

How the data were processed

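The authors counted UMIs per gene and cell with the BD Rhapsody WTA Analysis Pipeline 1.11 (mouse genome GRCm38, gene models of GENCODE release M19), counting reads in introns too, and deposited these counts without normalization, with a second table of deposited Sample Tag read counts. No tag call per cell was used from elsewhere. A cell was assigned to the tag with at least 75% of at least 10 tag reads, and was kept with 150 to 5000 genes if mitochondrial UMIs did not exceed 20%. The table holds 107214449 UMIs of 27031 genes, and 43882368 and 31046151 of them fall in the macrophages of the control and telmisartan pools. Another 1580 cells with split tags and 186 with few tag reads were not used. Counts were summed over cells and given as CPM. Ratios have exact conditional binomial intervals, and shares exact Clopper-Pearson intervals. The calculation was tested on simulated data. Python 3.11.15, numpy 2.4.6, scipy 1.17.1, pandas 2.3.3, scanpy 1.11.5 (Scrublet), matplotlib 3.10.9, R 4.3.3 and edgeR 4.0.16 (TMM factors alone) were used. The cells, the lists and the named genes were chosen with earlier results of these data known. Named genes are those of the lists (in each list the members with the most UMIs and the largest and smallest ratio, and others that carry its function), the 12 highest and 12 lowest of mitotic against non-mitotic macrophages and the 12 highest and 12 lowest of telmisartan against control with at least 200 UMIs. A ratio against 0 uses a floor of 3 UMIs. Alternatives covered the tag share, the limits on genes and mitochondrial UMIs, the *Lyz2* minimum, the number of rule genes, doublet scores, scalings, UMI minimums, thinning and depth matching. Leaving out cells with at least 3 UMIs of another cell type and thinning without the upper gene limit were added after seeing the data. Symbols alone identify genes in the counts. Tumor growth, the paper's clusters and trajectories were not analysed here, and some genes that meet the naming rule are not reported here.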

Additional observations from a re-analysis of the deposited data

Results flagged for a closer look

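Cells outside the limits also met the mitotic rule. Over the limit of 5000 genes it was met by 58 of 69 control macrophages (84.1%) and 11 of 15 of telmisartan (73.3%), and over the mitochondrial limit by 18 of 712 (2.53%) and 44 of 1238 (3.55%). Among cells with fewer than 5 *Lyz2* UMIs, 27 of 582 (4.64%) and 14 of 757 (1.85%) had at least 4 of the 6 genes, and among cells with a *Cd3d*, *Cd3e* or *Cd3g* UMI 24 of 175 (13.7%) and 23 of 222 (10.4%) did. Of macrophages whose tag reads were split between both tags, 69 of 715 (9.65%) met it.

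Some ratios of telmisartan over control had opposite signs in mitotic and non-mitotic macrophages, and these differences were not tested. Of 58 genes at least 2-fold higher or lower in mitotic macrophages, 56 had the same sign in non-mitotic macrophages. *Cd24a*, *Vcan* and *Lilra6* summed to 0.22 (0.09 to 0.34) in mitotic and -0.28 (-0.34 to -0.23) in non-mitotic macrophages on the log2 scale. *Cxcl3*, *F3* and *Slpi* summed to 0.46 (0.32 to 0.60) and -0.76 (-0.80 to -0.72). *Rnd3* was at -0.94 (-1.39 to -0.51) and 0.67 (0.48 to 0.86).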

How the results depend on the processing

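Single genes were run under the alternatives for the 12 highest and 12 lowest of each comparison, and none of these changed sign. Of the summary values 74 stayed (shares within their interval, counts of genes within 1.5 times) and 21 moved. Of the values of these genes 649 stayed within their interval and 23 moved for mitotic against non-mitotic macrophages, and 316 stayed and 20 moved for telmisartan against control. The share of mitotic macrophages was 11.6% in control without the upper gene limit, 13.03 and 12.3% with at least 3 of the 6 genes, 8.45 and 8.85% with at least 5, and 14.1 and 15.3% by a sum of at least 400 CPM over the 6 genes in macrophages of at least 2000 UMIs. Thinning to 2000 UMIs gave 3.88 and 4.71% (log2 ratio 0.28), and thinning to 5000 gave 8.97% in control (log2 ratio 0.35). Thinning to 5000 without the gene limit, added after seeing the data, gave 11.8% in telmisartan (log2 ratio 0.21). Thinning removes molecules by construction, and otherwise the cause was not tested. With a minimum of 30 UMIs more genes were tested, 12864 and 10393, giving 233 lower in mitotic macrophages and 122 higher and 87 lower in telmisartan. Against non-mitotic macrophages of matched depth 67 of 9836 genes were lower. Members of middle depth (medians of 13927 and 13937.5 UMIs) gave 23 genes higher and 20 lower in telmisartan of 6683, and a tag share of 90% gave 22 lower. TMM factors moved the medians over all genes by under 0.1, to -0.02 or nearer to 0. With 1 pool per group, depth limits genes with few UMIs, and a difference between mice cannot be told apart from one between pools.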
